A study of Mus musculus with 16 samples.

Results

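miR-146a and miR-146b are a pair of microRNAs encoded on different mouse chromosomes and known as targets of the inflammatory transcription factor NF-kB. They were followed here in carotid arteries of the mouse before and after a wire injury. The members were the microRNAs whose array name was exactly mmu-miR-146a or mmu-miR-146b, written below without the species prefix, which gave 2 of the 611 mouse miRNAs measured. All 16 arrays were used, and both members entered the test across 321 miRNAs.

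The arteries came from female ApoE-/- mice on the C57BL/6 background, kept on a western-type diet. ApoE-/- mice lack apolipoprotein E and build up cholesterol-rich plaques, so the uninjured arteries were not from healthy animals either. The groups were uninjured arteries (3 arrays) and arteries taken 1 day (3), 7 days (3), 14 days (3) and 28 days (4) after wire-induced injury, which strips the inner lining and is followed by growth of a neointima. The labels gave an age of 8 weeks for day 1 and of 6 to 8 weeks for every other group. Nothing in the labels stated whether each array held the artery of 1 animal or a pool, so the p-values below measure the spread between these arrays. Total RNA (700 ng) was labelled with 1 dye, Cy3, and hybridised to 1 Agilent mouse miRNA array per sample.

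MicroRNAs are short RNAs that pair with messenger RNAs, mainly through bases 2 to 8 (the seed), and lower their output. Toll-like receptor and cytokine signals acting through NF-kB are known to induce miR-146a. It is known to repress Irak1 and Traf6, proteins of the same signalling route, and so to act as a brake on inflammation. miR-146b has the same seed and is known to be induced by inflammatory signals too, including cytokines that act through Stat3. The question for these arrays was whether the 2 loci moved together in time after injury.

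The mature sequences of both members are printed to show how alike they are. They were taken from RefSeq (GRCm38.p6), with the seed in capitals.
miR-146a: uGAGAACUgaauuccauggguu
miR-146b: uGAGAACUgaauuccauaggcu
The mature miR-146a lies at chr11:43374435-43374456 on the minus strand, and the mature miR-146b at chr19:46342790-46342811 on the plus strand. They were identical at 20 of 22 bases. The differences were G18A and U21C, written with the miR-146a base first and counted from the 5′ end. The seed GAGAACU was carried by 2 of the 1679 mature mouse names searched, which were these members. Probe sequences were not used here, so cross-hybridisation of one member to the other's probes was not tested.

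The precursor hairpins are printed to show what surrounds the shared arm, which is in capitals.
Mir146: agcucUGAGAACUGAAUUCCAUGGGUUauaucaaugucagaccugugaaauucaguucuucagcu
Mir146b: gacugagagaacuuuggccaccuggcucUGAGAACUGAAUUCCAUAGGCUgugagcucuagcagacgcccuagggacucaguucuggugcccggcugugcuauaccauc
The Mir146 hairpin spans 65 bases at chr11:43374397-43374461 on the minus strand, and the Mir146b hairpin spans 109 bases at chr19:46342762-46342870 on the plus strand. In RefSeq, Mir146 overlapped no other listed gene and had Atp10b and Gm5782 as neighbours. Mir146b overlapped the long non-coding RNA Gm36493 and had Cuedc2 and 2310034G01Rik as neighbours. The opposite arms of the hairpins shared 4 of 22 bases at the same position.
miR-146a, opposite arm: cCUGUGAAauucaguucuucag
miR-146b, opposite arm: gCCCUAGGgacucaguucuggu
In these opposite arms the capitals again mark the seed, and the seeds differed. The opposite arm of miR-146b, named miR-146b* on the array, had 4 probes, and none of them was well above background on any of the 16 arrays. No mouse probe on the array carried the name miR-146a*, so the opposite arm of miR-146a had no value under that name.

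The brightness at the 75th percentile of the scaling probes ranged from 401 to 1432 between arrays, and 251 to 335 miRNAs were detected per array. Arrays correlated with the others of their own group at a mean r of 0.949 to 0.987, and none of the 120 pairs of arrays held identical values. All arrays lay on 2 slides. Slide 1 held day 1, day 7 and 2 day 28 arrays, while slide 2 held the uninjured, day 14 and the other 2 day 28 arrays. Uninjured arteries were therefore never on the same slide as day 1 or day 7, and those comparisons with the slide taken into account rest on the day 28 arrays that bridge the slides. The smooth muscle miRNAs miR-143 and miR-145 and the endothelial miR-126-3p were detected on all 16 arrays. In whole tissue, a change in the number of cells of a type and a change in the amount of RNA per cell cannot be told apart.

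Each member had 2 probes, each printed 10 times per array. The brighter probe stands for the member in what follows. The miR-146a probe was well above background on all 16 arrays, and its spot intensity was 39.4, 45.3 and 68.5 in uninjured arteries, 82.7 to 95.4 at day 1, and 256 to 795 on the later days. The miR-146b probe was well above background on 15 arrays. Its intensity was 14.2, 16.2 and 24.1 in uninjured arteries, where the array at 16.2 did not pass, 59.5 to 116 at day 1, and 129 to 423 later. No spot of either member was saturated.

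**Figure D1:**
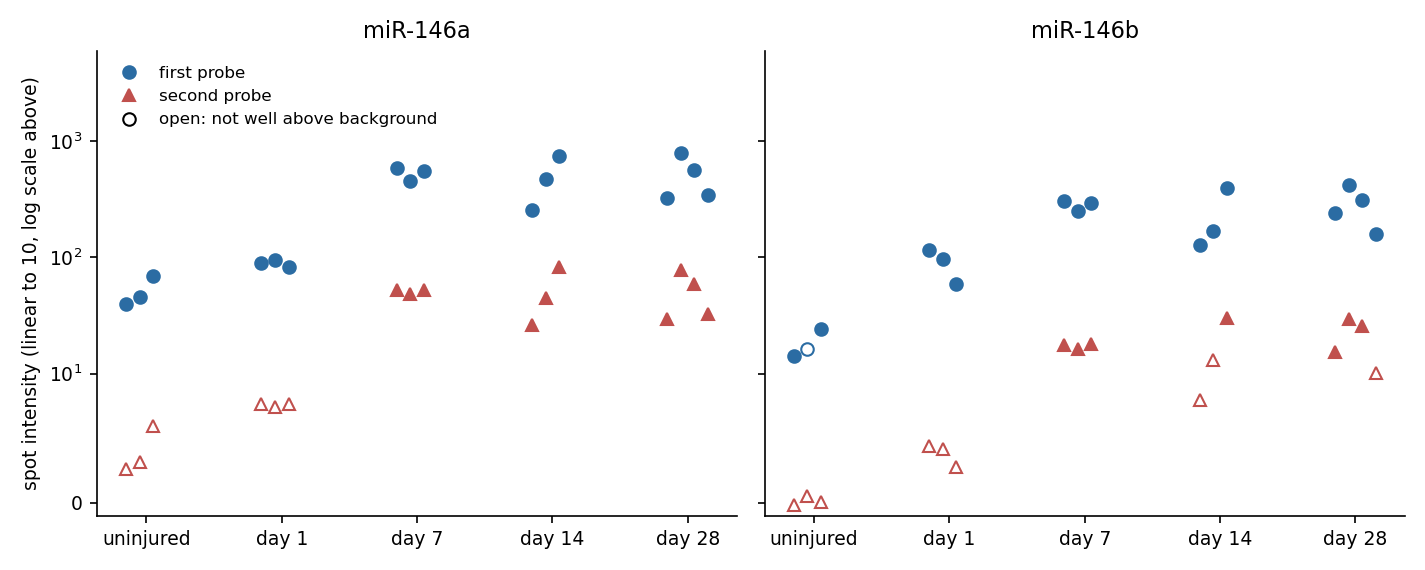
Spot intensity (vertical axis, arbitrary units, linear up to 10 and logarithmic above) of both probes of miR-146a (left) and miR-146b (right) on each of the 16 arrays, before scaling. Filled symbols are well above background and open symbols are not: the second probe of either member is open on every uninjured and day 1 array.

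The second probes were dim. The second miR-146a probe gave 2.64 to 5.95 in uninjured arteries and 7.44 to 7.69 at day 1, where no array was well above background, and then 26.1 to 83.4 from day 7 on, where all 10 arrays were. The second miR-146b probe was well above background on 3 arrays at day 7, 1 at day 14 and 3 at day 28. These probes give no usable value for day 1 against uninjured, since all 6 arrays lie at the floor set on low values.

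miR-146a climbed in a late step, and miR-146b was already well up at day 1. Levels are given as log2 scaled signal, in which 0 is the 75th percentile of that array's scaling probes. Levels of the 2 members are not set against each other, because probes differ in brightness. For miR-146a the uninjured arrays stood at -3.35, -3.57 and -3.19, with a mean of -3.37 ± 0.19 (SD, n = 3). Day 1 arrays stood at -2.75, -3.00 and -2.55 (-2.76 ± 0.22, n = 3). All 3 day 1 arrays were above all 3 uninjured ones, by a narrow gap.

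From day 7 on, miR-146a was on a plateau. It read -1.05, -0.84 and -0.87 at day 7 (-0.92 ± 0.12, n = 3) and -1.02, -0.61 and -0.94 at day 14 (-0.86 ± 0.22, n = 3). Day 28 arrays read -1.04, -0.47, -0.80 and -0.71 (-0.76 ± 0.24, n = 4). The later groups overlapped one another, and every array in them was far above every day 1 array.

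miR-146b started near background. Its uninjured arrays stood at -4.82, -5.05 and -4.70 (-4.86 ± 0.18, n = 3), and the floor lay at -5.79. Day 1 arrays stood at -2.39, -2.96 and -3.02 (-2.79 ± 0.35, n = 3), with replicate 1 above the other 2. The gap to the uninjured arrays was wide, and no array crossed it.

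The later days took miR-146b further. Day 7 read -1.99, -1.71 and -1.79 (-1.83 ± 0.14, n = 3), and day 14 read -2.01, -2.08 and -1.86 (-1.98 ± 0.11, n = 3). Day 28 read -1.47, -1.37, -1.65 and -1.83 (-1.58 ± 0.20, n = 4). All later arrays were above all day 1 arrays, day 7 overlapped both day 14 and day 28, and day 28 did not overlap day 14. How many of all 321 miRNAs had groups lying apart in these ways was not counted, here or for miR-146a above.

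**Figure D2:**
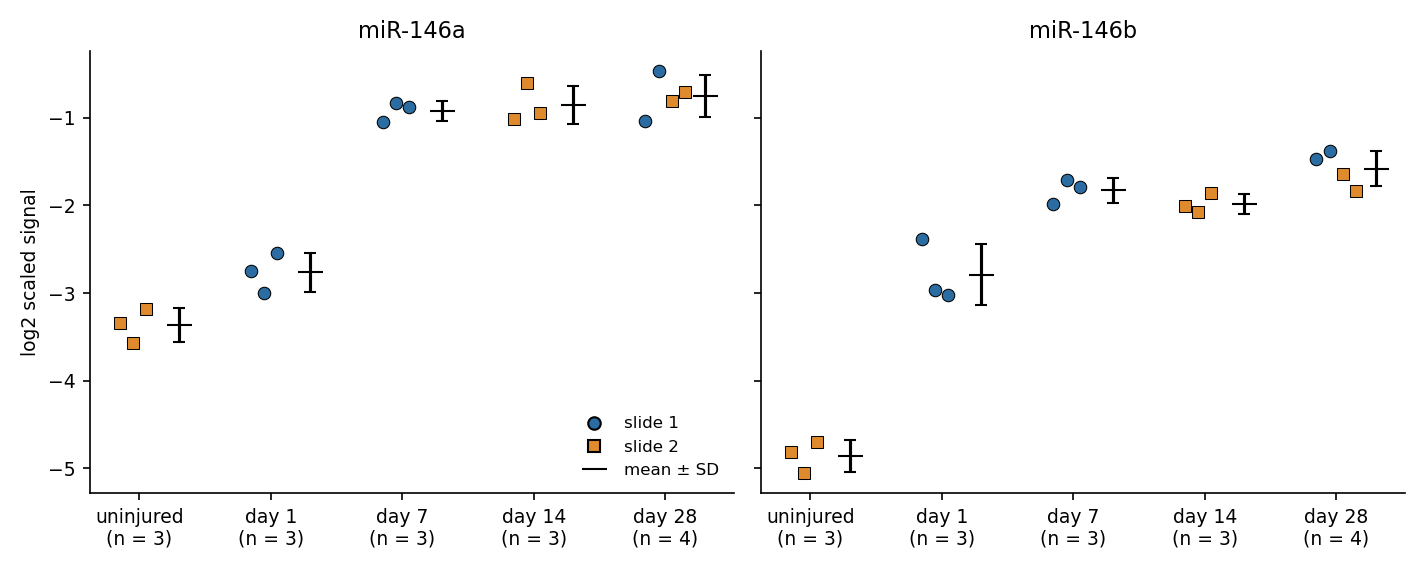
Log2 scaled signal (vertical axis) of miR-146a (left) and miR-146b (right) on each array, by group (horizontal axis); circles are slide 1, squares slide 2, and bars the mean ± SD. miR-146a sits at -3.37 in uninjured arteries and -2.76 at day 1 before the step to -0.92 at day 7, whereas miR-146b moves from -4.86 to -2.79 within the first day.

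Against uninjured arteries, both members were called higher at day 1 in the limma fit over all 321 miRNAs, where 19.6% of miRNAs were called higher. The sizes differed. miR-146a was higher by 0.60 ± 0.17 (SE), a 1.52-fold difference, with a limma adjusted p of 0.0193, and it ranked 103 of 321. miR-146b was higher by 2.06 ± 0.18, 4.18-fold, with a limma adjusted p of 2.81e-06, and ranked 13 of 321.

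The small day 1 difference of miR-146a did not hold under other scalings. It was -0.03 with each array scaled to the 75th percentile of all mouse probes, -0.05 with median scaling and -0.12 with quantile normalisation, and the limma adjusted p was 0.94, 0.90 and 0.63. The median of all 321 miRNAs at day 1 moved from 0.24 to -0.31, -0.34 and -0.12 in those scalings. Relative to that median, miR-146a stood at 0.36 as reported, and at 0.28, 0.29 and 0.01 in turn. The call was also lost with the slide as a fixed block (0.60, limma adjusted p 0.246), and on leaving out uninjured replicate 2 (0.50, 0.0876), day 1 replicate 1 (0.60, 0.0528) or day 1 replicate 3 (0.50, 0.0700).

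The day 1 rise of miR-146b was called in all 35 alternatives that gave it a value. It ranged from 0.70 with normexp background correction to 2.31 without scaling, and the highest limma adjusted p was 0.0335. With the slide as a fixed block it was 1.75 (limma adjusted p 0.00158). Relative to the median of all miRNAs it was 1.82, and 1.50 to 1.75 in the other 3 scalings named above.

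From day 7 on both members were among the highest risers of the array. At day 7, where 27.4% of miRNAs were called higher, miR-146a was higher by 2.45, 5.45-fold (limma adjusted p 2.08e-07), and miR-146b by 3.03, 8.15-fold (3.51e-08). They ranked 8 and 2 of 321. At day 14, against a background of 20.2%, miR-146a was higher by 2.51, 5.70-fold (1.89e-07), and miR-146b by 2.87, 7.32-fold (1.01e-07), with ranks 6 and 3.

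At day 28 miR-146b ranked 1 and miR-146a ranked 4 of 321 by rise. miR-146a was higher by 2.61 ± 0.16, 6.12-fold, with a limma adjusted p of 1.01e-07. miR-146b was higher by 3.27 ± 0.17, 9.67-fold, with a limma adjusted p of 1.71e-08. At this time 16.8% of miRNAs were called higher. Within slide 2, which held uninjured and day 28 arrays together, the differences were 2.61 for miR-146a and 3.12 for miR-146b. With normexp background correction the rises at day 7, 14 and 28 still passed but were smaller, at 1.56, 1.61 and 1.70 for miR-146a and 1.31, 1.17 and 1.49 for miR-146b. The day 28 value of miR-146b then lay below that of miR-21 (2.71), so its first rank does not hold in that setting. The miR-146b rises over uninjured arteries fell below the threshold with its dim second probe, at 0.05, 0.07 and 0.37.

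The spacing between days also set the members apart. miR-146a was higher at day 7 than at day 1 by 1.84 (limma adjusted p 3.47e-06), where 18.7% of miRNAs were called higher, and miR-146b by 0.96 (8.60e-04). From day 1 to day 14 the differences were 1.91 (3.46e-06) and 0.81 (0.00264), with 17.4% of miRNAs called higher. That miR-146b call was lost without scaling (1.23, limma adjusted p 0.0747) and with replicate and slide blocks (1.06, 0.147). From day 1 to day 28 they were 2.01 (1.26e-06) and 1.21 (1.59e-04), with 17.1% called higher. Both members therefore rose after day 1, miR-146a by more on the log2 scale.

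As a share of its own difference from uninjured arteries at day 7, 14 and 28, the day 1 value of miR-146a came to 24.7%, 24.1% and 23.1%. For miR-146b the shares were 68.2%, 71.9% and 63.1%. With the scalings that turn the miR-146a day 1 value below 0, no such share can be given for it.

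Among the later days no difference passed the test for either member, where 10.3% of miRNAs were called in either direction for day 14 against day 7, 33.6% for day 28 against day 7 and 15.3% for day 28 against day 14. Day 14 minus day 7 was 0.06 for miR-146a (95% confidence interval -0.31 to 0.44) and -0.16 for miR-146b (-0.54 to 0.23). Day 28 minus day 14 was 0.10 for miR-146a (-0.25 to 0.45). For miR-146b it was 0.40 (0.04 to 0.76), and although the groups did not overlap, the limma adjusted p was 0.145. Levels thus ran in the order uninjured, day 1, day 7, day 14, day 28 for miR-146a, and uninjured, day 1, day 14, day 7, day 28 for miR-146b, with the last 3 groups not told apart in either. Over all 5 groups at once, miR-146b had the second and miR-146a the fourth highest limma F value, at 116 (adjusted p 6.89e-08) and 105 (7.47e-08), among 196 of 321 miRNAs called.

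The 2 members were then compared on each array by subtracting log2 miR-146a from log2 miR-146b, which removes the scaling of the array. Only movement of this difference is read, not its sign, since it also holds the brightness of the probes. In uninjured arteries it was -1.47, -1.48 and -1.51 (-1.49 ± 0.02, SD, n = 3), and at day 1 it was 0.36, 0.04 and -0.47 (-0.03 ± 0.42, n = 3). The uninjured arrays were nearly alike, and all 3 day 1 arrays were above all of them. At day 7 it had come back to -0.94, -0.87 and -0.91 (-0.91 ± 0.03, n = 3).

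On later days the difference stayed below most day 1 arrays. Day 14 gave -0.99, -1.47 and -0.92 (-1.13 ± 0.30, n = 3), and day 28 gave -0.44, -0.91, -0.84 and -1.12 (-0.83 ± 0.29, n = 4). Day 14 replicate 2 reached the uninjured level, and day 28 replicate 1 lay just above the lowest day 1 array. All other arrays of day 7, 14 and 28 lay between the uninjured and the day 1 arrays.

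**Figure D3:**
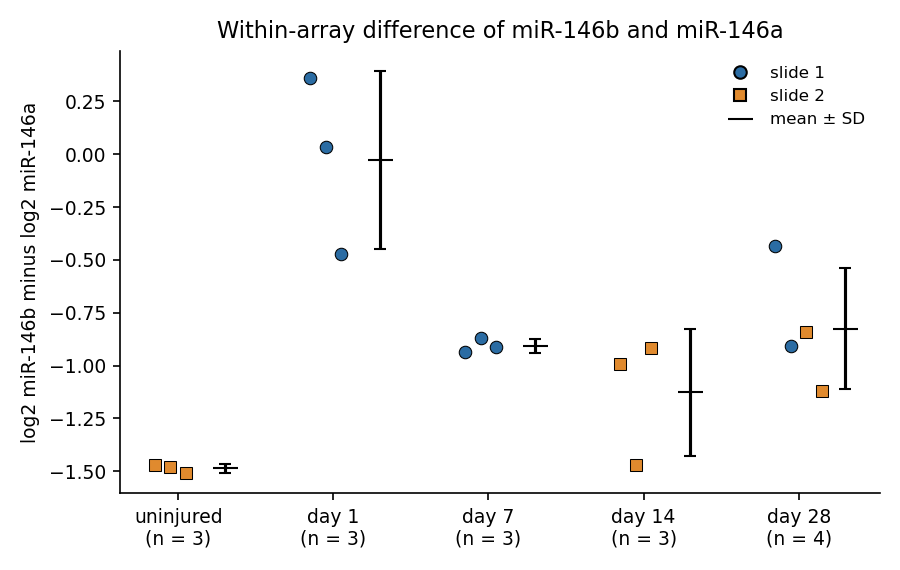
Log2 miR-146b minus log2 miR-146a (vertical axis) on each array, by group (horizontal axis); circles are slide 1, squares slide 2, and bars the mean ± SD. The mean moves from -1.49 in uninjured arteries to -0.03 at day 1 and then lies between -1.13 and -0.83 on the later days.

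The 10 later arrays were lower than the 3 day 1 arrays by a mean difference of -0.91 (exact two-sided permutation test, p = 0.00699, adjusted p = 0.0420 over 6 such tests). The smallest p this design allows is 0.0035. Within slide 1 alone, with 5 later arrays against 3, the difference was -0.79 (exact permutation p = 0.0357). Leaving out each array in turn kept it between -1.14 and -0.72 with an unadjusted exact permutation p of at most 0.0303. The adjusted p exceeded 0.05, however, for each of the 12 injured arrays other than day 28 replicate 1, at 0.0528 to 0.112.

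Injured against uninjured arteries the within-array difference was higher by 0.76 (exact two-sided permutation test, p = 0.0232), which did not pass after adjustment (0.0696). All uninjured arrays lay on slide 2, and within slide 2 alone the difference was 0.42 (exact permutation p = 0.0714, adjusted p = 0.15). Day 1 and day 7 arrays lay on slide 1 only, so in these permutation tests slide and injury cannot be told apart for them. By day the mean differences from uninjured arteries were 1.46, 0.58, 0.36 and 0.66 for day 1, 7, 14 and 28 in turn. The exact permutation p was 0.1, 0.1, 0.2 and 0.0571. With 3 arrays against 3 it cannot go below 0.1, and with 4 against 3 not below 0.0286, so the single days cannot settle it. With normexp background correction, computed anew from raw spot and background signals with an offset of 50, the injured against uninjured difference turned to -0.11. The cause of this turn was not tested.

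The miRNAs whose profile over the 16 arrays ran closest to each member were found by the root mean square of the log2 difference between mean-centred profiles. This is a description over arrays that share groups and slides. Closest to miR-146a was miR-155, another miRNA known to be induced by inflammatory signals, at 0.33. It was followed by miR-34a, a known p53 target, at 0.40, miR-342-3p at 0.43, miR-146b at 0.52 and miR-342-5p at 0.59. The median over all miRNAs was 1.23. These neighbours were picked for likeness to miR-146a on the same arrays, so a shared timing follows from the choice. At day 1, miR-155, miR-34a, miR-342-3p, miR-146b and miR-342-5p differed from uninjured arteries by 0.90, -0.22, -0.18, 2.06 and 0.14. At day 7 they differed by 2.97, 2.17, 1.26, 3.03 and 1.17.

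Closest to miR-146b was miR-21, an abundant miRNA known to rise in injured vessels, at 0.42. Then came miR-146a at 0.52, miR-362-5p and miR-221 at 0.57 each, and miR-155 at 0.63, where the median over all miRNAs was 1.26. These too were picked for likeness on the same arrays. At day 1, miR-21, miR-146a, miR-362-5p, miR-221 and miR-155 differed from uninjured arteries by 2.32, 0.60, 1.26, 1.26 and 0.90. miR-155 thus appeared near both members, while miR-34a and both miR-342 arms were listed for miR-146a alone and miR-21, miR-362-5p and miR-221 for miR-146b alone.

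**Figure D4:**
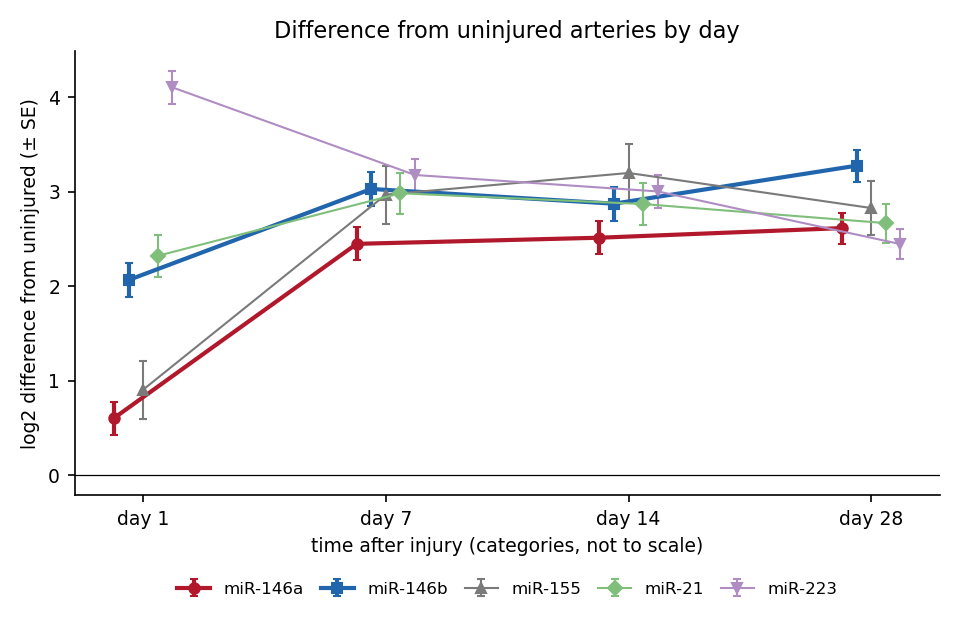
Log2 difference from uninjured arteries with its SE (vertical axis) at day 1, 7, 14 and 28 (horizontal axis, categories) for miR-146a, miR-146b, miR-155, miR-21 and miR-223. At day 1 miR-146a (0.60) lies near miR-155 (0.90) and miR-146b (2.06) near miR-21 (2.32), and miR-223 is highest at day 1 (4.10).

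A list of 12 other miRNAs known to respond to inflammatory signals was read beside the members. All 12 were on the array and 10 were bright enough to test. Of these, 4 were called higher and 2 lower on the first day, 5 and 1 by day 7, 4 and 2 on day 14, and 5 and 0 on day 28. Over all 321 miRNAs the share called higher was 19.6%, 27.4%, 20.2% and 16.8% on the same days. The share called lower was 12.8%, 22.4%, 19% and 9.35%. The list's median was 0.47, 0.47, 0.27 and 0.41 over the 4 days, against 0.24, 0.00, 0 and 0.03 for all miRNAs tested. miR-155, miR-132, miR-21 and miR-221 were called higher at all 4 times. This depended on the processing. At day 1, miR-21 passed under all alternatives run for the list, at 1.67 to 2.56. miR-155 stood at 0.27, 0.25 and 0.18 (limma adjusted p 0.488, 0.547 and 0.687) with the 75th percentile of all probes, the median and quantile normalisation. miR-221 stood at 0.63, 0.61 and 0.58 (limma adjusted p 0.085, 0.0833 and 0.0977) in the same scalings, and miR-132 lost its call with quantile normalisation (0.51, 0.0723). The list then had 2, 2 and 1 miRNAs called higher and 2 lower in each, and with the slide as a fixed block 2 higher and 0 lower. Over all miRNAs tested, 17, 17 and 24 were called higher at day 1 in those scalings, and 95, 103 and 71 lower. With the slide as a fixed block 24 were higher and 6 lower.

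miR-132, known to be induced by the transcription factor Creb, was higher by 1.31, 1.44, 1.12 and 1.02 at day 1, 7, 14 and 28. Day 1 and day 7 were less close in other scalings, at 0.67 and 1.29 with the 75th percentile of all probes and 0.51 and 1.42 with quantile normalisation. With normexp it did not pass at day 14 (0.28, limma adjusted p 0.177) or day 28 (0.24, 0.238). miR-212, from the same cluster, passed at no time (0.36, 0.21, 0.06 and 0.16). miR-221, known to act on smooth muscle growth, was higher by 1.26, 1.81, 1.52 and 1.82. Its cluster partner miR-222 was dimmer, at 0.73 on day 7 and 0.67 on day 28, where it passed, though not with the slide as a fixed block (0.31 and 0.46). It was detected on 10 arrays and lay at the floor on every uninjured array, so these differences depend on the floor. With normexp they were -0.05 and -0.11, and without scaling the day 28 call was lost (0.87, limma adjusted p 0.0783). With the 75th percentile of all probes, the median or quantile normalisation miR-222 passed on both days.

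Other miRNAs of the list went the other way. let-7e fell by 1.08 and miR-125a-5p fell by 0.41 at day 1 (-0.25 and -0.34 with the slide as a fixed block, limma adjusted p 0.688 and 0.331), miR-125b-5p fell by 0.78 at day 14, and miR-9* fell by 2.15 at day 7 and by 1.56 at day 14. With the slide as a fixed block the day 7 value of miR-9* was -2.23 (limma adjusted p 0.0591). Without scaling miR-9* stood at -1.18 at day 7 and -0.90 at day 14 (limma adjusted p 0.199 and 0.426). It belongs to a miRNA known mainly from the nervous system. The 3 nerve miRNAs tested, miR-124, miR-137 and miR-129-5p, were all called lower at day 7 and day 14, where 22.4% and 19% of all miRNAs were. Without scaling all 3 passed at day 7 and 0 at day 14, and with the slide as a fixed block 2 passed at day 14. A link between miR-9* and the nerve miRNAs was not tested. miR-147 was detected on no array and miR-9 on 3.

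Several leukocyte miRNAs were higher after injury too. Of 7 leukocyte miRNAs, all tested, 4 were called higher at day 1 and 5 at each later time, and none lower, where 19.6%, 27.4%, 20.2% and 16.8% of all miRNAs were called higher. The share of all miRNAs called lower was 12.8%, 22.4%, 19% and 9.35%. With the 75th percentile of all probes or median scaling, 3 were called higher and 1 lower at day 1. Over all miRNAs tested, 17 were then higher in each, and 95 and 103 lower. With the slide as a fixed block 2 were called higher and 0 lower at day 1, against 24 and 6 over all, and miR-142-3p stood at 1.89. Their summed scaled signal was 2.98 to 3.09 in uninjured arteries and 26.6 to 29.3 on the first day. Later it was between 15.7 and 20.5 (day 7), 14.5 and 21.4 (day 14), and 12.2 and 16.2 (day 28). The sum was thus highest at day 1, but it is taken on the linear scale, where the brightest miRNA counts most. That was miR-223, at a mean log2 scaled signal of 4.57 on day 1, followed by miR-142-3p at 1.08. The part of leukocytes in the members' rise was not tested.

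Within this list the miRNAs differed in time. miR-223, a marker of neutrophils and other myeloid cells, was higher by 4.10 at day 1 and by 3.18, 3.00 and 2.44 later. miR-142-3p, a marker of blood cells in general, was higher by 3.07, 2.75, 2.02 and 2.29. miR-342-3p, present in lymphoid and myeloid cells, passed at day 7, 14 and 28, at 1.26, 1.91 and 1.71, and stood at -0.18 on day 1. With the 75th percentile of all probes or the median it was called lower at day 1, at -0.82 and -0.84 (limma adjusted p 0.00145 and 6.00e-04). miR-150, a marker of mature lymphocytes, was detected on 8 arrays and called at no time. miR-511 was detected on 14 arrays and called at no time either (0.59, -0.15, 0.07 and -0.06). miR-155 is in both this list and the inflammatory one.

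Smooth muscle and erythroid miRNAs did not move as the members did. miR-126-3p, the only endothelial miRNA tested, stood at -0.20, 0.45, 0.37 and 0.42 at day 1, 7, 14 and 28. It passed at day 7 alone (limma adjusted p 0.0305), where 27.4% of all miRNAs were called higher. With the slide as a fixed block or normexp it passed at day 7 and day 28. With the 75th percentile of all probes or the median it was called lower at day 1 and not called at day 7. The sum of miR-143 and miR-145, the smooth muscle pair, was 3.53 to 6.37 in uninjured arteries and 2.94 to 5.13 at day 1, where neither was called as reported, and both were called lower with the 75th percentile of all probes or the median. Both were called lower at day 7, 14 and 28, though without scaling neither passed at day 7 (-0.71 and -0.95) or day 28 (-0.76 and -0.83). None of the 3 erythroid miRNAs was called at any time, and their sum ranged from 16.3 to 42.9 in uninjured arteries and from 27.7 to 63.0 at day 1.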

How the data were processed

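Each sample was 1 Agilent miRNA array (Sanger release 12 design), scanned and extracted by the authors with Feature Extraction 9.5.1.1 per the file headers. The deposited values used were its processed spot intensity, already background-subtracted, on a linear scale. Spots marked as outliers were left out, spots of a probe averaged, and each array of 1759 mouse probes scaled to the 75th percentile of the 395 probes well above background on all 16 arrays. A floor of 0.0181 was set, then log2 taken. A probe counted as well above background with at least 50% of its spots so marked. The brightest probe stood for its miRNA.

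A miRNA was tested where all arrays of 1 or more groups had it well above background, which left 321. Limma 3.58.1 (R 4.3.3) fitted all 5 groups in 1 model with Benjamini-Hochberg adjustment over all tested, called at an adjusted p under 0.05. Within-array differences had exact two-sided permutation tests over arrays. Named miRNAs were the members, the 5 closest profiles to each, and members of the lists. The precision is limited by the 3 or 4 arrays per group. The deposited value table, whose further processing is not given in the sources used here, served as an alternative. It followed the scanner's total gene signal for both members. Alternatives in scaling, background, floor, filter, probe, slide, pairing and replicates are given in the closing section. The scripts were tested on simulated data. The members and lists were chosen with earlier results of these data known.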

Additional observations from a re-analysis of the deposited data

Results flagged for a closer look

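The effect of injury differed between times for both members. On the log2 scale miR-146a was higher than at day 1 by 1.84 at day 7, 1.91 at day 14 and 2.01 at day 28. miR-146b was higher than at day 1 by 0.96, 0.81 and 1.21 on the same days. The difference between the members, log2 miR-146b minus log2 miR-146a on each array, was lower on the later days than at day 1 by a mean difference of -0.91. All 3 day 1 arrays lay on slide 1, and within that slide the value was -0.79. No array stood apart from its group at day 28. Groups of 3 arrays were not checked in this way.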

How the results depend on the processing

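Of 906 comparisons of a difference with an alternative, 859 kept direction and side of the threshold, 26 lost the call and 21 changed sign. Part of the 859 was fixed in advance, so the tally does not measure stability. Permutation tests of 3 arrays against 3 cannot go below 0.1 and could not gain or lose a call. Scaling an array by a single factor cancels in the within-array difference, which stayed at -0.91 for later days against day 1. Counts of called miRNAs were not among the 906 and were judged apart, as kept when within 1.5 times. The cause of a change was not tested in any. The day 1 difference of miR-146a was -0.029 with the 75th percentile of all probes, -0.048 with median scaling, -0.12 with quantile normalisation, 0.85 without scaling, 0.21 with normexp, 0.60 with slide as a fixed block, 0.42 with replicate and slide blocks, and 0.50 to 0.72 leaving out each array. Against uninjured arteries, miR-146b calls were lost with the second probe, at or near the floor: 0.047, 0.072 and 0.37 at day 7, 14 and 28. Its day 14 minus day 1 call was lost without scaling (1.23), with replicate and slide blocks (1.06) and with the second probe (0.072), and its day 7 minus day 1 call with the second probe (0.047). Between later days, miR-146a day 14 minus day 7 was -0.020 with median scaling, -0.24 without scaling and -0.060 to 0.15 leaving out arrays. Its day 28 minus day 14 was -0.035 with quantile normalisation, -0.087 with total gene signal, -0.063 with the authors' table, -0.037 with replicate and slide blocks and -0.045 with array weights. Day 28 minus day 7 without scaling was -0.16 for miR-146a and -0.080 for miR-146b. For miR-146b, day 14 minus day 7 was 0.024 with the second probe, 0.16 with the slide block and 0.10 with replicate and slide blocks. With normexp the within-array difference was -0.11 for injured against uninjured, and -0.25, -0.44 and -0.21 at day 7, 14 and 28. Later days against day 1 ranged from -1.14 to -0.72 leaving out arrays.

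Called miRNAs numbered 104, 160, 126 and 84 at day 1, 7, 14 and 28. Day 1 gave 36 without scaling, 56 with normexp, 30 with the slide block, 10 with replicate and slide blocks, 198 with array weights and 69 to 117 leaving out arrays, the lowest without uninjured replicate 2. Day 7 gave 92 with the slide block and 45 with replicate and slide blocks. Day 14 gave 72 without scaling. Day 28 gave 55 with the slide block, 55 on slide 2 alone, 21 with replicate and slide blocks and 44 with the 2 groups alone. The split of higher and lower calls moved with scaling. At day 1 it was 63 and 41 as reported, 17 and 95 with the 75th percentile of all probes, 17 and 103 with the median, 24 and 71 with quantile normalisation and 34 and 2 without scaling. At day 7 it was 88 and 72, and 122 and 9 without scaling. At day 14 it was 65 and 61, 52 and 76 with the median and 68 and 4 without scaling. At day 28 it was 54 and 30, 30 and 41 with the median, 38 and 33 with quantile normalisation and 60 and 1 without scaling.

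Same-numbered arrays did not deviate together (mean correlation -0.01 over 30 pairs, 0.0007 over the 72 others), so replicate numbers were not taken as pairs. With the replicate number as a block, day 28 differences were 2.60 for miR-146a and 3.36 for miR-146b, called miRNAs numbered 92, 153, 116 and 66, and no call of a member changed. Requiring detection on all arrays gave no value for miR-146b. In uninjured arteries miR-146b was well above background on 2 of 3 arrays, which limits its differences from that group.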
